A study of Mus with 16 samples.

Results

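The 10 genes described here are imprinted growth genes, *H19*, *Igf2*, *Dlk1*, *Meg3*, *Peg3*, *Ndn*, *Magel2*, *Mest*, *Grb10*, and *Plagl1*. They were taken by their Ensembl identifiers from a table of 54219 genes, by a rule that used no measured value. All 10 passed the filter on low counts, which left 17866 genes for testing. The samples were forebrains, cortex and hippocampus together, of 16 mice at P6 (postnatal day 6). Each group held 4 animals. *Kdm5c*-HET females carry the deleted allele on a single X chromosome and were compared with WT females, and *Kdm5c*-KO males carry it on their only X chromosome and were compared with WT males. The deletion removes a pair of neighbouring exons by Cre recombination, the strain background mixed 129S1/SvImJ with C57BL/6J, and the animals came from 3 litters. The animals are named here by a number and a letter, D or E, which the labels do not explain. Letter D was on 2 of the *Kdm5c*-KO and 3 of the WT males, and on 1 of the *Kdm5c*-HET and 2 of the WT females. Total counts per animal ranged from 21513783 to 30063352, and the 10 genes together took 0.175% to 0.292% of them.

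Imprinted genes are expressed mainly from a single parental allele, set by DNA methylation marks laid down in the germ line, and many of them act on growth before and after birth. As background, paternally expressed genes of this kind tend to promote growth and maternally expressed genes tend to restrain it, and several are abundant in the developing brain. The product of *Kdm5c*, a gene of the X chromosome, is a histone demethylase that acts on H3K4. The counts do not separate the parental alleles, so each value below is the sum of both. In whole tissue, fewer cells of a type and less RNA per cell cannot be told apart.

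Of the 10 genes, *Ndn* was the one called as a differentially expressed gene (DEG) by *Kdm5c* genotype, at a q-value under 0.1. It was 19.6% higher in *Kdm5c*-HET than in WT females (95% interval 10.4% to 29.5%). In males, 0 of the 10 genes passed at q < 0.1, against 5.24% of all genes tested, and 4 of them (*Ndn*, *Mest*, *Grb10*, and *Plagl1*) had an unadjusted p-value under 0.05, as did 16.5% of all genes. DESeq2 called *Ndn* and *Mest* in males, among 1132 genes called in all. With the letter as a covariate, edgeR called 3 of the 10 (*Ndn*, *Mest*, and *Grb10*), among 1468 genes in all, where the main fit called 937. In females 1 of the 10 passed, against 0.509% of all genes, and 3 (*Ndn*, *Mest*, and *Grb10*) had an unadjusted p-value under 0.05, against 6.49% of all genes. The female estimates were positive for all 10 genes, with a median log2 fold change (Log2FC) of 0.17, where 49.6% of all genes were positive. Several of these estimates were near 0, and 9 were positive with the letter as a covariate and 7 without *Kdm5c*-HET 9D. The male estimates were positive for 5 and negative for 5, with a median of 0.07, where 48% of all genes were positive. The difference of the male and female effects passed for 0 of the 10 genes in edgeR and in DESeq2, against 0.0392% of all genes in edgeR, and 1 (*H19*) had an unadjusted p-value under 0.05, as did 6.37% of all genes. The q-values come from edgeR over all genes tested, and its p-values set each difference against the spread between animals of a group. They take the animals as independent, although these came from 3 litters.

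**Figure D1:**
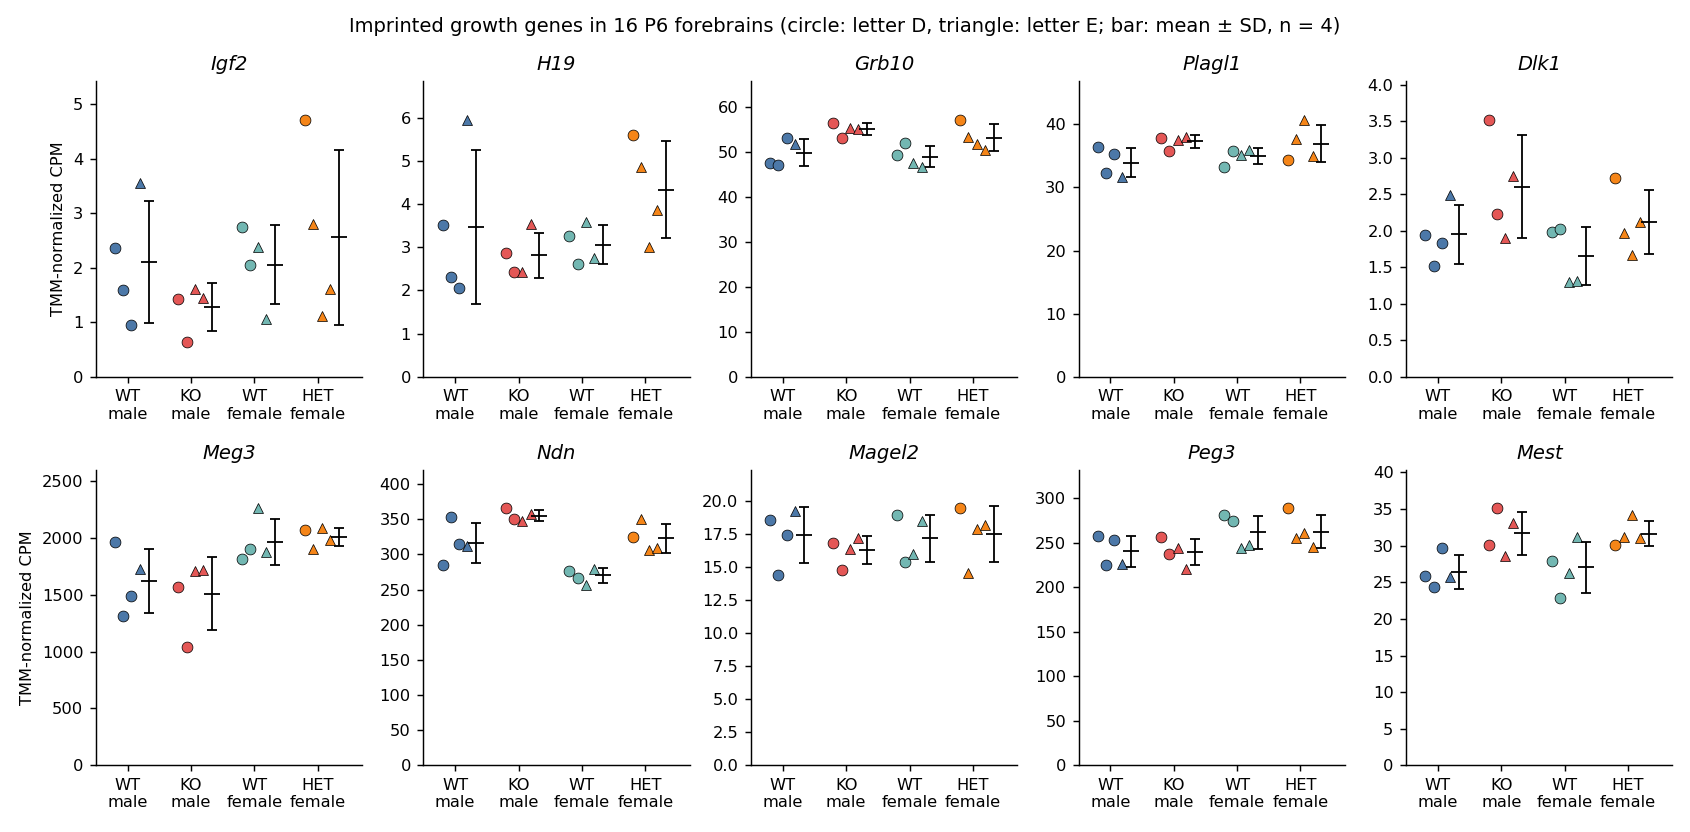
Level of each of the 10 genes in TMM-normalized CPM (counts scaled to library size, vertical axis from 0) by group, with circles for animals of letter D and triangles for letter E, and black bars for the mean ± SD of 4 animals. The *Ndn* levels of the 4 WT females (257 to 280 CPM) lie below those of all other animals, and *Igf2* spreads over 7.41-fold.

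Lists of single animals keep a fixed order, which is 4D, 6D, 2E, 3E for *Kdm5c*-KO and 2D, 5D, 7D, 1E for WT males, and 9D, 6E, 8E, 9E for *Kdm5c*-HET and 1D, 3D, 4E, 5E for WT females. Levels are CPM after TMM normalization, and Log2FC is mutant against WT unless stated.

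*Igf2* (ENSMUSG00000048583; mm10 chr7:142650768-142666816) encodes insulin-like growth factor 2, a growth factor that is paternally expressed in most tissues and in the brain is made largely by the meninges and the choroid plexus, where both alleles are expressed. The *Kdm5c*-KO males had 1.43, 0.64, 1.62, and 1.45 CPM, against 2.35, 1.58, 0.94, and 3.55 CPM in their WT controls. *Kdm5c*-HET females had 4.72, 2.81, 1.11, and 1.61 CPM, against 2.75, 2.05, 2.38, and 1.05 CPM in WT females. Every *Kdm5c*-KO male lay within the range of the WT males or below it, and the *Kdm5c*-HET females spanned both the highest level of all 16 animals and one of the lower ones. The raw counts behind these levels were small, at 120, 70, 28, and 38 in *Kdm5c*-HET and 82, 60, 57, and 24 in WT females, and 35, 16, 40, and 41 in *Kdm5c*-KO and 63, 46, 21, and 77 in WT males. The Log2FC was -0.71 (SE 0.435, q = 0.452) in males and 0.31 (SE 0.408, q = 0.982) in females. Neither passed, nor did their difference, at -1.01 (SE 0.596, q = 0.813). Without *Kdm5c*-HET 9D the female estimate changed sign, to -0.17, and the difference was -0.53. Without WT male 1E the male estimate was -0.35. WT females and WT males differed by -0.02 (SE 0.415, q = 0.99).

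*Igf2* overlaps the microRNA *Mir483* and the noncoding gene *Igf2os* in the RefSeq annotation, and the strand setting of the counting is not given in the sources used here. *Igf2* levels varied 3.10 times as widely within groups as counting alone would give (SD 0.718 against 0.231 on the log2 scale). The markers of the choroid plexus were matched for 3 of the 9 on the list (*Ttr*, *Aqp1*, and *Slc4a5*), and all 3 were lower in *Kdm5c*-KO males. Their summed level was 2.67 to 3.56 CPM in *Kdm5c*-KO against 2.17 to 207 CPM in WT males, and 4.13 to 87.6 CPM in *Kdm5c*-HET against 5.29 to 196 CPM in WT females, and none was at 0. *Ttr*, the transthyretin gene, was at 0.277 CPM in WT male 1E and 0.669 CPM in *Kdm5c*-HET female 9D, the animals with the highest *Igf2* in their sex. In the same animals *Aqp1* was at 1.20 and 2.64 CPM and *Slc4a5* at 0.692 and 0.826 CPM, and the *Aqp1* level of 9D was the highest of the *Kdm5c*-HET females. The part of the choroid plexus in the *Igf2* levels was not tested beyond these values. None of the 10 markers of leptomeninges could be matched to an identifier.

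*H19* (ENSMUSG00000000031; chr7:142575530-142578146) is a maternally expressed noncoding RNA, which lies 72621 bp from *Igf2* and shares its imprinting control region. Levels in *Kdm5c*-KO males were 2.87, 2.43, 2.42, and 3.53 CPM, and their WT controls had 3.51, 2.31, 2.06, and 5.95 CPM. The *Kdm5c*-HET females stood at 5.59, 4.86, 3.01, and 3.86 CPM and WT females at 3.25, 2.60, 3.59, and 2.76 CPM. WT male 1E had the highest level of all, and the groups of both sexes overlapped. Behind these levels lay 142, 121, 76, and 91 counts in *Kdm5c*-HET and 97, 76, 86, and 63 in WT females, and 70, 61, 60, and 100 counts in *Kdm5c*-KO and 94, 67, 46, and 129 in WT males. The Log2FC was -0.28 (SE 0.269, q = 0.666) in males and 0.51 (SE 0.262, q = 0.833) in females. The difference of the effects was -0.79 (SE 0.376) with an unadjusted p of 0.0487 in the edgeR fit and a q-value of 0.777, so that it was not called. Without WT male 1E the male estimate was 0.10, of the opposite sign, and the difference was -0.41. WT females and WT males differed by -0.17 (SE 0.267, q = 0.787).

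*Igf2* and *H19* rose and fell together across animals after the group means were removed, with Pearson's r = 0.797 over 16 animals (permutation p = 0.00155, adjusted over 3 pairs 0.00465) and Spearman's rho = 0.759 (permutation p = 0.00605, adjusted 0.0182). Without the 2 animals farthest from the median of *Igf2*, *Kdm5c*-HET female 8E and WT male 7D, r was 0.678. Within letter D r was 0.872 (n = 8) and within letter E it was 0.811 (n = 8). The ratio of *Igf2* to *H19* counts was 0.460 ± 0.169 in *Kdm5c*-KO against 0.603 ± 0.105 in WT males, and 0.552 ± 0.215 in *Kdm5c*-HET against 0.670 ± 0.207 in WT females (SD, n = 4 each). These ratios overlapped between all groups, and no test was run on them.

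*Grb10* (ENSMUSG00000020176; chr11:11930499-12037428) encodes an adaptor that binds insulin and insulin-like growth factor receptors and restrains their signal. The *Kdm5c*-KO males had 56.5, 53.2, 55.3, and 55.1 CPM, against 47.5, 47.03, 52.98, and 51.7 CPM in their WT controls. Levels in *Kdm5c*-HET females were 57.2, 53.3, 51.7, and 50.3 CPM, and WT females had 49.4, 51.98, 47.6, and 46.7 CPM. All *Kdm5c*-KO males were above all WT males, by a narrow margin over 7D, whereas the female groups overlapped. The raw counts were 1453, 1327, 1303, and 1188 in *Kdm5c*-HET and 1473, 1518, 1141, and 1066 in WT females, and 1379, 1335, 1369, and 1563 in *Kdm5c*-KO and 1270, 1365, 1182, and 1120 in WT males. The Log2FC was 0.15 (SE 0.0533, q = 0.166) in males and 0.12 (SE 0.0533, q = 0.715) in females, and neither passed. The exact two-sided permutation test of the male groups gave p = 0.0286, the smallest that 4 animals against 4 allow, and 8.91% of all genes had male groups that did not overlap. Leaving out WT males 2D and 5D, the 2 WT males with high *Ttr*, lowered the male estimate to 0.07 (q = 0.798). That fit kept only WT males 7D and 1E as controls. With the letter as a covariate the male estimate was called (Log2FC 0.16, q = 0.0834). The male effect minus the female effect was 0.03 (SE 0.0754, q = 0.974), and WT females and WT males differed by -0.02 (SE 0.0535, q = 0.861).

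*Plagl1* (ENSMUSG00000019817; chr10:13090832-13131694) encodes a zinc finger transcription factor, paternally expressed, that regulates other imprinted genes. Levels in *Kdm5c*-KO males were 37.9, 35.7, 37.5, and 38.03 CPM, and their WT controls had 36.4, 32.2, 35.3, and 31.7 CPM. *Kdm5c*-HET females had 34.4, 37.7, 40.8, and 34.9 CPM, against 33.2, 35.8, 35.2, and 35.97 CPM in WT females. In males only *Kdm5c*-KO 6D, at 35.7 CPM, lay below a WT animal, 2D at 36.4 CPM. Behind these levels lay 875, 937, 1028, and 824 counts in *Kdm5c*-HET and 989, 1045, 844, and 821 in WT females, and 925, 897, 929, and 1078 counts in *Kdm5c*-KO and 973, 936, 788, and 686 in WT males. The Log2FC was 0.14 (SE 0.0607, q = 0.263) in males and 0.08 (SE 0.0605, q = 0.955) in females, and the difference of the effects was 0.06 (SE 0.0857, q = 0.937). WT females and WT males differed by 0.05 (SE 0.0608, q = 0.736). The RefSeq span of *Plagl1* overlaps that of the noncoding *Hymai*.

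**Figure D2:**
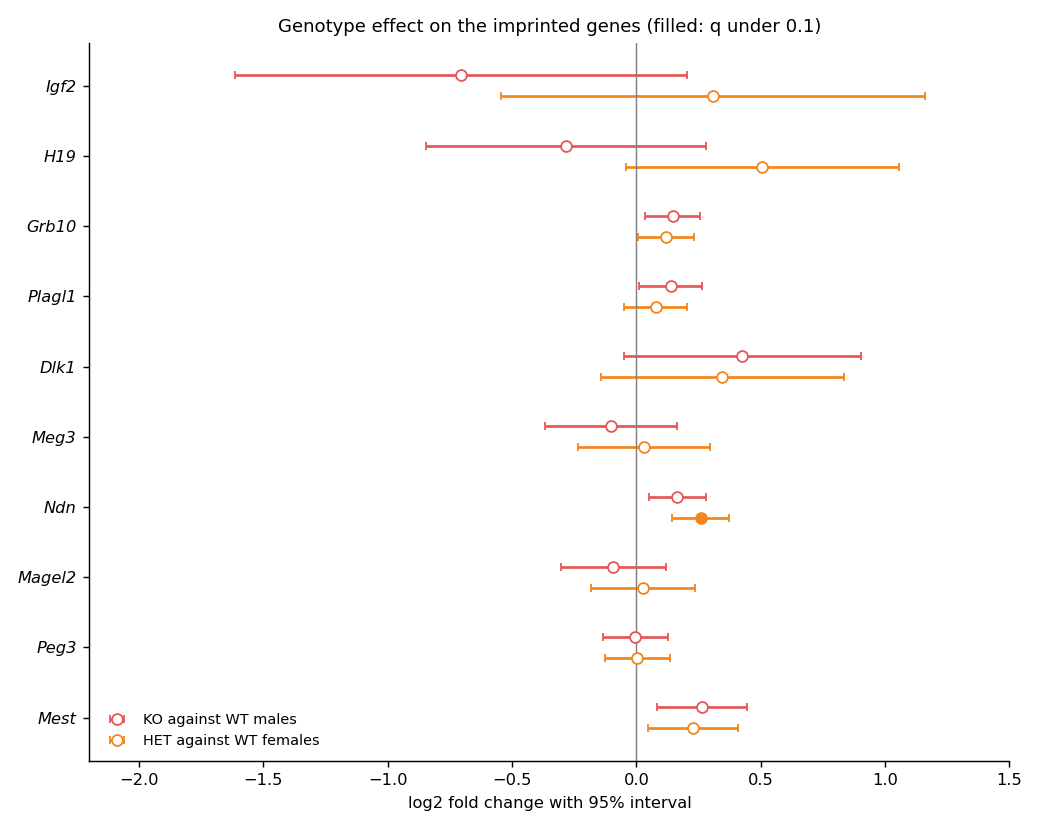
Log2 fold change (horizontal axis) of each gene, with its 95% interval, in *Kdm5c*-KO against WT males (upper of each pair) and *Kdm5c*-HET against WT females (lower), with filled points for q under 0.1. The *Ndn* estimate in females, 0.26, is the only filled point, and the intervals of *Igf2*, *H19*, and *Dlk1*, the genes with the fewest counts, are the widest.

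*Dlk1* (ENSMUSG00000040856; chr12:109452485-109463336) encodes a membrane protein related to Notch ligands, paternally expressed. The *Kdm5c*-KO males had 3.52, 2.23, 1.90, and 2.75 CPM, against 1.94, 1.52, 1.84, and 2.49 CPM in their WT controls. The *Kdm5c*-HET females stood at 2.71, 1.97, 1.67, and 2.12 CPM and WT females at 1.98, 2.02, 1.29, and 1.31 CPM. *Kdm5c*-KO 4D was the highest of the 16, and the groups overlapped in both sexes. The raw counts were 69, 49, 42, and 50 in *Kdm5c*-HET and 59, 59, 31, and 30 in WT females, and 86, 56, 47, and 78 in *Kdm5c*-KO and 52, 44, 41, and 54 in WT males. The Log2FC was 0.43 (SE 0.228, q = 0.372) in males and 0.34 (SE 0.234, q = 0.936) in females, and the interval of the male estimate ran from -0.05 to 0.90. The male estimate was 0.25 without *Kdm5c*-KO 4D, and the female estimate 0.20 without *Kdm5c*-HET 9D. The male effect exceeded the female by 0.08 (SE 0.327, q = 0.985), and WT females and WT males differed by -0.22 (SE 0.236, q = 0.675).

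*Meg3* (ENSMUSG00000021268; chr12:109540996-109571729) is a maternally expressed noncoding RNA that lies 77659 bp from *Dlk1*. Levels in *Kdm5c*-KO males were 1566, 1038, 1709, and 1719.6 CPM, and their WT controls had 1964, 1311, 1486, and 1721 CPM. Levels in *Kdm5c*-HET females were 2063, 1899.9, 2081, and 1979 CPM, and WT females had 1814, 1898, 2258, and 1877 CPM. *Kdm5c*-KO 6D and WT male 5D were the lowest, and WT female 4E was the highest. Behind these levels lay 52440, 47280, 52479, and 46704 counts in *Kdm5c*-HET and 54090, 55426, 54163, and 42840 in WT females, and 38266, 26069, 42306, and 48746 counts in *Kdm5c*-KO and 52555, 38061, 33143, and 37280 in WT males, which was 0.103% to 0.228% of all counts. The Log2FC was -0.10 (SE 0.127, q = 0.753) in males and 0.03 (SE 0.127, q = 0.998) in females, with a difference of -0.14 (SE 0.18, q = 0.93). WT females were higher than WT males by 0.28 (SE 0.127) with an unadjusted p of 0.0428 in the edgeR fit, which did not pass (q = 0.26). It was called without *Kdm5c*-KO 6D (q = 0.0972) and with no filter on low counts (q = 0.00048). The Log2FC with no filter was also 0.28, so the smaller q-value did not come from a larger difference. With these counts sampling gives an SD of 0.00694 on the log2 scale, and the SD within groups was 0.228, which is 32.8 times as wide. The RefSeq span of *Meg3* overlaps *Mir770*, *Mir1906-1*, and *Rtl1*.

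For *Dlk1* and *Meg3* no correlation was detected over the 16 animals after removal of the group means (r = 0.145, permutation p = 0.678, adjusted 0.678, and rho = 0.135, permutation p = 0.666, adjusted 0.859). Without *Kdm5c*-KO 4D and *Kdm5c*-HET 9D, r was 0.0807. With all animals, it was 0.571 within letter D and -0.0403 within letter E (n = 8 each), and 0.399 over the 16 with the letter removed as well as the group means.

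*Ndn* (ENSMUSG00000033585; chr7:62348277-62349928) encodes necdin, a MAGE family protein, paternally expressed, that is abundant in postmitotic neurons and is lost in Prader-Willi syndrome. The *Kdm5c*-KO males had 366, 350.5, 347, and 357 CPM, against 285, 354, 315, and 312 CPM in their WT controls. *Kdm5c*-HET females had 325, 351, 306, and 309.7 CPM, against 277, 267, 257, and 279.9 CPM in WT females. Every *Kdm5c*-HET female was above every WT female, and in males only WT 5D, at 354 CPM, reached the range of the *Kdm5c*-KO animals. The raw counts were 8254, 8727, 7722, and 7307 in *Kdm5c*-HET and 8247, 7789, 6162, and 6388 in WT females, and 8929, 8799, 8586, and 10118 in *Kdm5c*-KO and 7623, 10271, 7037, and 6760 in WT males. The mean rose from 270.0 ± 10.4 CPM in WT to 323 ± 20.2 CPM in *Kdm5c*-HET females (SD, n = 4 each), a Log2FC of 0.26 (SE 0.0550, q = 0.0451). The exact two-sided permutation test gave p = 0.0286, the smallest 4 against 4 allow, where 4.47% of all genes had female groups that did not overlap. In males the means were 317 ± 28.4 CPM and 355 ± 8.17 CPM, a Log2FC of 0.17 (SE 0.0549, q = 0.12) that was not called (exact permutation p = 0.0857). Between the sexes the effects differed by -0.09 (SE 0.0777, q = 0.876), so the sexes were not shown to differ in it.

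The female call for *Ndn* was lost without WT female 3D (q = 0.154), WT female 4E (q = 0.171), *Kdm5c*-HET 9D (q = 0.115), or *Kdm5c*-HET 6E (q = 0.227), and the Log2FC ran from 0.22 to 0.28 over the 16 fits that left out an animal. The male estimate was called without WT male 5D (Log2FC 0.23, q = 0.0235), by DESeq2 (q = 0.0806), with no filter on low counts (q = 0.0263), with a minimum of 10 counts (q = 0.0978), and with the letter as a covariate (q = 0.0556). *Ndn* was also lower in WT females than in WT males, by a Log2FC of -0.23 (SE 0.0550, q = 0.039), with groups that did not overlap, against 5% of all genes called and 10.6% of all genes not overlapping. This call was lost without WT male 5D (Log2FC -0.17, q = 0.16), WT female 4E (-0.21, q = 0.105), or WT female 5E (-0.25, q = 0.11). Without WT males 2D and 5D it was not called (Log2FC -0.22, q = 0.201), with 10 genes called in all in that fit. By mean level the groups ranked from WT females, the lowest, through WT males and *Kdm5c*-HET females to *Kdm5c*-KO males. The 2 groups in the middle of that order overlapped (317 ± 28.4 against 323 ± 20.2 CPM), and that pair was not tested.

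*Magel2* (ENSMUSG00000056972; chr7:62376979-62381640), a MAGE family gene of the same paternally expressed domain, lies 27050 bp from *Ndn*. Levels in *Kdm5c*-KO males were 16.8, 14.8, 16.4, and 17.2 CPM, and their WT controls had 18.6, 14.4, 17.4, and 19.3 CPM. The *Kdm5c*-HET females stood at 19.5, 14.5, 17.9, and 18.2 CPM and WT females at 18.9, 15.4, 16.01, and 18.5 CPM. These ranges overlapped in every pair of groups. Behind these levels lay 495, 362, 452, and 429 counts in *Kdm5c*-HET and 565, 449, 384, and 423 in WT females, and 411, 372, 406, and 488 counts in *Kdm5c*-KO and 497, 419, 389, and 418 in WT males. The Log2FC was -0.09 (SE 0.101, q = 0.719) in males and 0.03 (SE 0.101, q = 0.998) in females, with a 95% interval of -0.18 to 0.24 in females. The gap between the effects was -0.12 (SE 0.143, q = 0.926), and WT females and WT males differed by -0.02 (SE 0.101, q = 0.957). The RefSeq spans of *Ndn* and *Magel2* both overlap that of the noncoding *Gm32061*.

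Per base of gene span, the count of *Ndn* was 61.6 ± 3.64 times that of *Magel2* in *Kdm5c*-KO against 52.3 ± 11.7 times in WT males, and 52.8 ± 10.1 times in *Kdm5c*-HET against 44.5 ± 3.41 times in WT females (SD, n = 4 each). Across animals, with group means removed, the pair had r = -0.449 (permutation p = 0.18, adjusted 0.27) and rho = -0.0588 (permutation p = 0.859, adjusted 0.859). Without WT males 5D and 2D, r was -0.14. With all animals, it was -0.461 within letter D and -0.419 within letter E (n = 8 each).

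**Figure D3:**
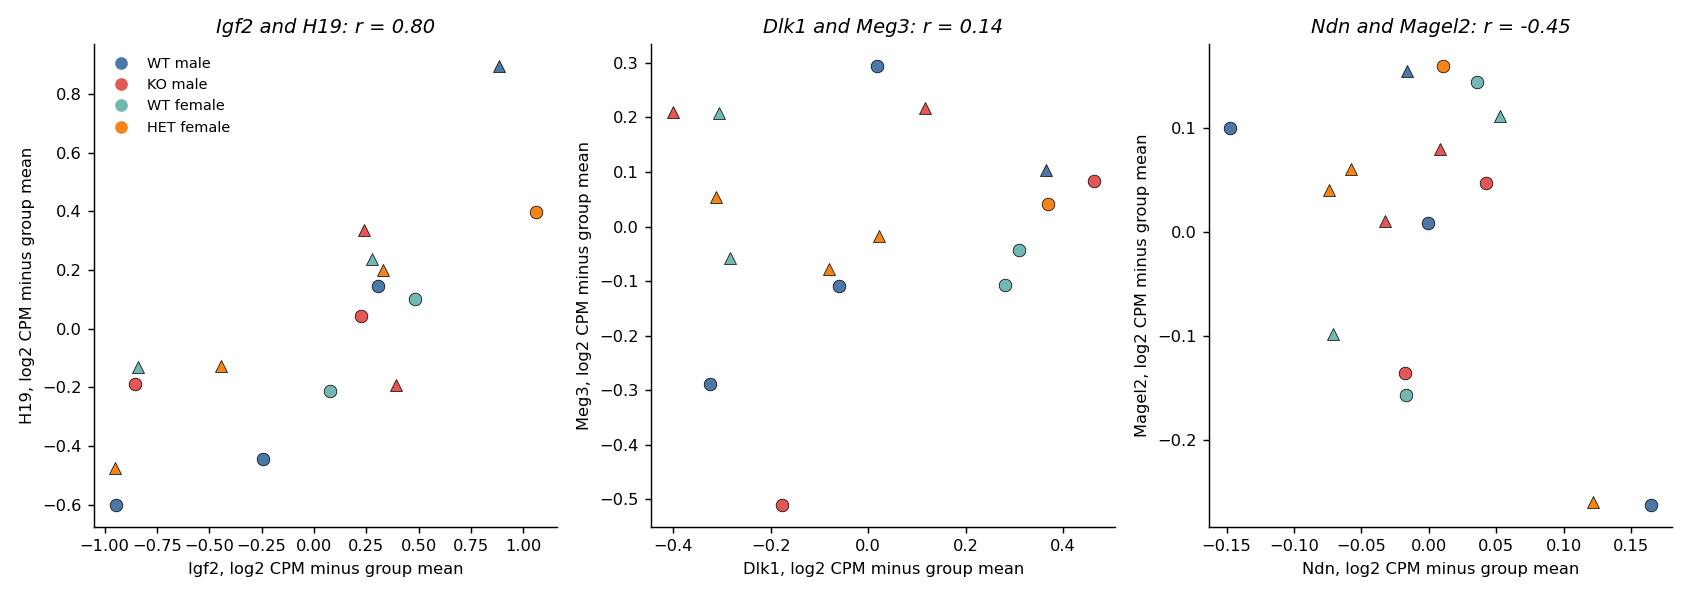
Level of the genes of each neighbouring pair in the 16 animals, as log2 CPM minus the mean of the animal's group, with color for the group and circles and triangles for letters D and E. *Igf2* and *H19* lie along a rising band (r = 0.797), and *Dlk1* with *Meg3* (r = 0.145) and *Ndn* with *Magel2* (r = -0.449) do not.

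*Peg3* (ENSMUSG00000002265; chr7:6703892-6730462) encodes a zinc finger protein, paternally expressed, that has been tied to growth and maternal behaviour. The *Kdm5c*-KO males had 257, 237, 244, and 221 CPM, against 257, 225, 253, and 226 CPM in their WT controls. Levels in *Kdm5c*-HET females were 289, 256, 261, and 245 CPM, and WT females had 281, 275, 245, and 247 CPM. The groups overlapped in both sexes. The raw counts were 7343, 6360, 6577, and 5785 in *Kdm5c*-HET and 8373, 8022, 5870, and 5641 in WT females, and 6269, 5955, 6042, and 6264 in *Kdm5c*-KO and 6883, 6529, 5653, and 4900 in WT males. The Log2FC was -0.0044 (SE 0.0621, q = 0.984) in males, with a 95% interval of -0.13 to 0.13, and 0.0039 (SE 0.0620, q = 0.999) in females, with an interval of the same width. The difference of the effects was -0.0083 (SE 0.0877, q = 0.994), and WT females and WT males differed by 0.12 (SE 0.0620, q = 0.302), which with the letter as a covariate was 0.16 and called (q = 0.0339). The RefSeq span of *Peg3* overlaps the antisense gene *Peg3os*, and without a stated strand setting reads of the pair cannot be told apart.

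*Peg3* was the gene of the 10 that differed by letter. With group means fitted, the Log2FC of letter E against letter D was -0.14 (SE 0.0316, q = 0.00334), a change of -9.26% (95% interval -13.3% to -5.04%). The letter was called for 23.6% of all genes tested, against 1 of the 10. In every group the highest *Peg3* level was in an animal of letter D, and the D animals as a whole ran from 225 to 289 CPM and the E animals from 221 to 261 CPM. It was called in all 16 fits that left out an animal (q = 0.0005 to 0.0164). Choroid plexus markers also moved with the letter, with 2 of the 3 matched markers (*Ttr* and *Aqp1*) lower in E, as were *Rbfox3* (-0.12, q = 0.00625) and *Aqp4* (-0.20, q = 0.000214), and their part in the *Peg3* difference was not tested. The other 9 genes were not called by letter, and *Meg3*, at 0.17 (SE 0.0816, q = 0.169), and *Dlk1*, at -0.25 (SE 0.164, q = 0.324), had the next smallest p-values. *Meg3* was called by letter without WT male 2D (q = 0.0427), without WT males 2D and 5D (q = 0.0726), and without *Kdm5c*-HET 9D (q = 0.0832), and *Dlk1* without WT male 1E (q = 0.0628). The remaining 7 estimates ran from -0.10 for *Igf2* (SE 0.292, q = 0.858) to 0.22 for *H19* (SE 0.182, q = 0.448), with *Ndn* at -0.02 (SE 0.0381, q = 0.771), *Magel2* at 0.02 (SE 0.0738, q = 0.867), *Mest* at 0.04 (SE 0.0633, q = 0.741), *Grb10* at -0.04 (SE 0.0381, q = 0.504), and *Plagl1* at 0.03 (SE 0.0452, q = 0.743).

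**Figure D4:**
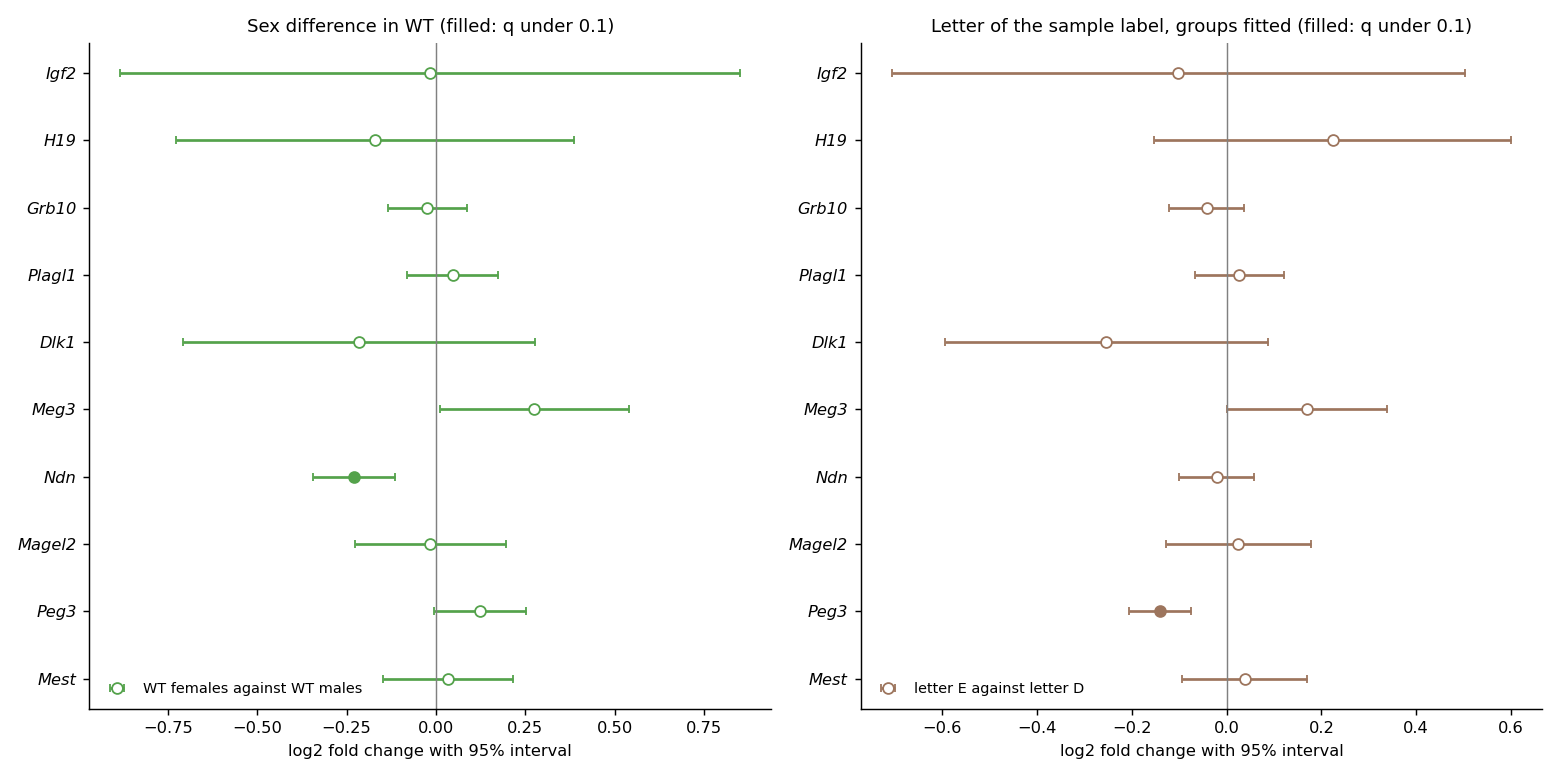
Log2 fold change of each gene with its 95% interval (horizontal axis), for WT females against WT males on the left and for letter E against letter D with the group means fitted on the right, with filled points for q under 0.1. *Ndn* at -0.23 is the filled point on the left and *Peg3* at -0.14 the filled point on the right.

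*Mest* (ENSMUSG00000051855; chr6:30733506-30748466) encodes a protein of the hydrolase fold, paternally expressed. Levels in *Kdm5c*-KO males were 30.1, 35.1, 28.6, and 33.02 CPM, and their WT controls had 25.8, 24.4, 29.7, and 25.8 CPM. *Kdm5c*-HET females had 30.1, 31.2, 34.1, and 31.1 CPM, against 27.9, 22.8, 26.3, and 31.1 CPM in WT females. The mutant groups were higher on average in both sexes, with overlap through WT male 7D and WT female 5E. Behind these levels lay 765, 777, 861, and 733 counts in *Kdm5c*-HET and 833, 666, 630, and 710 in WT females, and 735, 881, 707, and 936 counts in *Kdm5c*-KO and 691, 707, 663, and 558 in WT males. The means were 26.4 ± 2.30 and 31.7 ± 2.92 CPM in WT and *Kdm5c*-KO males, and 27.0 ± 3.46 and 31.6 ± 1.74 CPM in WT and *Kdm5c*-HET females (SD, n = 4 each). The Log2FC was 0.26 (SE 0.0867, q = 0.113) in males and 0.23 (SE 0.0865, q = 0.572) in females, and neither was called. The male call for *Mest* turned on the fit, since DESeq2 (q = 0.0697), no filter on low counts (q = 0.0236), a minimum of 10 counts (q = 0.0983), the letter as a covariate (q = 0.0853), and 4 of the 16 fits that left out an animal placed it under 0.1, and the fit without WT males 2D and 5D gave 0.19 (q = 0.65). The gap between the effects was 0.04 (SE 0.122, q = 0.979), and WT females and WT males differed by 0.03 (SE 0.0872, q = 0.886). The RefSeq span of *Mest* overlaps *Copg2* and *Mir335*.

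Within each letter the mutant and WT animals can be set side by side, with 1 to 3 animals a side and no test run within a letter. For *Ndn* the difference of mean log2 CPM was 0.18 in D males, 0.17 in E males, 0.26 in D females, and 0.26 in E females. For *Mest* it was 0.29, 0.25, 0.25, and 0.17 in the same order, and for *Grb10* 0.16, 0.10, 0.17, and 0.14. *Peg3* had 0.01, 0.04, 0.06, and 0.05, although its fitted effects were near 0. These 4 of the 10 genes had the higher mean in the mutant animals in all 4 strata, as did 10% of all genes tested. Among the others, the values were 0.04, -1.01, 0.92, and 0.28 for *H19* and -0.63, -1.18, 0.97, and 0.11 for *Igf2*.

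The genes nearest in pattern to each of the 10, by Pearson's r of log2 CPM centred on the group means over 16 animals, were taken from the 1008 other genes with a symbol, and the likeness is a description that shares library and depth. For *Meg3* they were *Irak1* (r = 0.924), *Npr2* (0.916), and *Ryr1* (0.839). For *Peg3* they were *Serpine2* (0.884), *Arfgef2* (0.868), and *Pcnx2* (0.849). The most like gene to *Grb10* was *Ampd3* (0.877), followed by *Fndc9* (0.820) and *Dmrtb1* (0.803), and for *Plagl1* it was *Ttc6* (0.868), then *2410004I01Rik* (0.736) and *Ptprd* (0.722). For *Igf2* they were *Gm6145* (0.854), the collagen gene *Col6a3* (0.798), and *Slc9a2* (0.791), and for *H19* they were *Sipa1* (0.834), *Chst5* (0.785), and *Col16a1* (0.725). For *Dlk1* the genes were *Dmrtb1* (0.789), *Lxn* (0.751), and *Rnd2* (0.746), and for *Mest* they were *Plaur* (0.781), *Dchs2* (0.769), and *Bhlha15* (0.737). *Ndn* and *Magel2* had weaker neighbours, with *Sobp* (0.731), *H1f10* (0.727), and *Prss8* (0.710) for *Ndn* and *Tex15* (0.721), *D1Pas1* (0.713), and *D330041H03Rik* (0.700) for *Magel2*.

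Symbols could be matched to identifiers mainly for genes that the study itself called on these animals, so the counts below are not independent evidence of a direction. Of 51 other imprinted genes, 6 were matched, and in males 4 rose and 0 fell (median Log2FC 0.28, against -0.01 over all genes). *Cdkn1c*, a maternally expressed inhibitor of the cell cycle, rose by 1.99 (SE 0.166) in males and was the 1 of the 6 that rose in females. *Zdbf2* (0.30), *Peg10* (0.49), and *Nnat* (0.20) were the other 3 that rose in males. In the insulin-like growth factor pathway 4 of 24 genes were matched, and the binding proteins *Igfbp2* (-0.24) and *Igfbp5* (-0.19) fell in males, whereas *Igf1r* (0.27) and *Igfbp4* (0.25) did not pass. None of the 4 passed in females. No gene was matched of 9 from the MAGE family or of 13 that establish or keep imprints.

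Tissue markers were read in the same way. The cortical gene *Emx1* (27.4 to 41.0 CPM) and the neuronal gene *Rbfox3* (216 to 275 CPM) were present in every animal. In males *Emx1* and *Rbfox3* fell, and the astrocyte gene *Aqp4* did not pass. Of the blood markers 3 of 5 were matched, and their summed level was 33.4 to 48.3 CPM in *Kdm5c*-KO against 53.97 to 70.1 CPM in WT males, and 44.6 to 50.5 CPM in *Kdm5c*-HET against 43.6 to 49.6 CPM in WT females, with 2 of the 3 lower in *Kdm5c*-KO than in WT males. None of these markers passed in *Kdm5c*-HET against WT females, where *Ndn* was called. In WT females against WT males, where *Ndn* was called too, *Emx1* (-0.24, q = 0.0823), *Hba-a1* (-0.40, q = 0.0417), and *Hba-a2* (-0.54, q = 0.0519) were lower in females, as *Ndn* was. No marker was matched of endothelium, mural cells, microglia, neural progenitors, or the ventral forebrain. The part of these cell types in the levels of the 10 genes was not tested.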

How the data were processed

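The authors made poly(A) libraries with a directional kit from 16 P6 forebrains and aligned the reads to mm10 with STAR 2.5.3a. They removed duplicates, kept reads with a unique position, and deposited unnormalized read counts per gene from featureCounts (Subread 1.5.0; versions from the submitters' processing notes). The strand setting is not given in the sources used here. These counts were tested with edgeR 4.0.16 (R 4.3.3). After filterByExpr and TMM scaling, a single glmQLFit model held the 4 group means of all animals. Contrasts were tested with glmQLFTest and adjusted by Benjamini-Hochberg over 17866 genes, with q under 0.1 as the threshold. The letter was tested in a fit with group means and the letter. Log2 CPM used a prior count of 2, and correlations used 100000 permutations within groups. DESeq2 1.42.0 was an alternative, with others listed in the closing section. In a simulation, 200 genes drawn at random were changed by 0.25 or 0.5 (log2). Of these, 13% and 69.5% were called in males, and 11.5% and 61.5% in females. False calls were 16.1% and 7.95% of all calls in males, and 8% and 7.52% in females. The real male comparison called 937 genes, more than the 200 changed here, so these rates need not hold for the 10 genes. The chi-square per gene between animals of a group was 2.78 to 13.9 over 24 pairs, so that no library looked repeated.

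All 10 genes were named with every animal's values, and lists and likeness followed rules that name at most 4 genes of a list and 3 like genes. The members and lists were chosen with earlier results of these data known. Symbols were paired with 1022 identifiers, from a table of genes the study called and from the list of members. *Kdm5c* itself is not among them and is not analysed here. Coordinates come from RefSeq on GRCm38.p6 (mm10). Some marker genes of the lists are not reported here.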

Additional observations from a re-analysis of the deposited data

How the results depend on the processing

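The alternatives were DESeq2 and its size factors, other limits on low counts (none, or a minimum of 10 counts for every animal), the animals of a single sex, the letter as covariate, a threshold of 0.05, CPM without TMM, and each animal left out. WT males 2D and 5D, those with high *Ttr*, were also left out together, a choice that follows a level measured in these data. In the letter comparison it was added after the data were seen. No paired analysis was possible because no animal name, a number with its letter, occurs in more than 1 group. The letter, which all groups share, was fitted as a covariate instead. For *Dlk1*, *H19*, and *Igf2*, the genes with the fewest counts, the spread between animals exceeded counting error. With 4 animals a group changes near 0.25 on the log2 scale were rarely recovered in simulation. That rate is over genes drawn at random and was not worked out for the 10 genes.

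DEGs in males numbered 937, and 583 at the 0.05 threshold, 1468 with the letter, 274 without WT males 2D and 5D, and 555 (without WT male 5D) to 1129 (without *Kdm5c*-KO 6D) with an animal left out. In females the 91 DEGs became 142 by DESeq2, 228 with no filter, 157 with the letter, and 50 (without WT female 3D) to 89 with an animal left out. The 7 DEGs of the difference became 27 by DESeq2, 80 with no filter, 24 with the letter, 3 without WT males 2D and 5D, and 5 to 9 with an animal left out. The 894 DEGs by sex became 348 at the 0.05 threshold, 1529 by DESeq2, 1679 with the letter, 10 without WT males 2D and 5D, and 69 (without WT female 5E) to 1243 with an animal left out, with 73 without WT male 5D, 319 without WT male 7D, and 436 without WT female 4E. The 4219 DEGs by letter became 3071 at the 0.05 threshold, and 3465 to 4263 with an animal left out. The correlation of *Igf2* and *H19* ranged from 0.744 to 0.848, that of *Dlk1* and *Meg3* from 0.0036 to 0.314, and that of *Ndn* and *Magel2* from -0.542 to -0.137. The cause of these changes was not tested.

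The *Ndn* call in females held in 12 of the 16 fits that left out an animal (q = 0.0171 to 0.227), and q was 0.000217 to 0.0506 over the other alternatives. *Meg3* was called with no filter by sex (q = 0.00048) and by letter (q = 6.52e-13), and *Peg3* by sex with the letter as covariate (q = 0.0339). The no-filter Log2FC of *Meg3*, 0.28 by sex and 0.17 by letter, stayed near that of the main fit. So did the male no-filter Log2FC of *Ndn* (0.17) and *Mest* (0.27). With no filter the q-values of these genes fell without a larger difference, so they are not stronger evidence than the main fit. The male Log2FC of *Peg3* turned positive with no filter (0.0013), the minimum of 10 counts (0.0037), the males alone (0.00023), and the letter (0.031), and the female Log2FC of *Meg3* turned negative with the letter (-0.0050). Without WT males 2D and 5D the difference of the effects turned negative for *Dlk1* (-0.079), *Mest* (-0.036), and *Grb10* (-0.046), and so did the sex difference of *Mest* (-0.0398). With each animal left out, the Log2FC changed sign in at least 1 fit, over the ranges given, in the male genotype comparison for *H19* (-0.46 to 0.10), *Meg3* (-0.19 to 0.0402), and *Peg3* (-0.038 to 0.033). The same held in the female genotype comparison for *Igf2* (-0.17 to 0.56), *Meg3* (-0.0064 to 0.11), *Peg3* (-0.047 to 0.036), and *Magel2* (-0.03 to 0.11). It also held in the difference of the effects for *Dlk1* (-0.093 to 0.23), *Meg3* (-0.22 to 0.011), *Peg3* (-0.0397 to 0.044), *Mest* (-0.032 to 0.11), and *Grb10* (-8.9e-05 to 0.067). It also held in the sex comparison for *H19* (-0.35 to 0.21), *Igf2* (-0.25 to 0.34), *Magel2* (-0.10 to 0.035), *Mest* (-0.041 to 0.11), and *Grb10* (-0.056 to 0.0061). It also held in the letter comparison for *H19* (-0.061 to 0.46), *Igf2* (-0.47 to 0.34), *Magel2* (-0.024 to 0.088), *Mest* (-0.0065 to 0.076), and *Plagl1* (-0.0043 to 0.067).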
